A study of Homo sapiens with 6 samples.

Results

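Histone genes were examined as a group of 82 protein-coding genes among the 60131 genes of the deposited RPKM table, of which 19902 are protein-coding. Of these, 70 are canonical genes, chosen by names that begin with HIST1H, HIST2H, HIST3H or HIST4H, and 12 are variant genes, matched through their current symbols because the table holds older names for them. The rule used gene names and no measured value, but the group was chosen with earlier results of these data known. The normalized count table held 81 of the 82, with H3-7 as the exception. Current symbols are used throughout.

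RNA was sequenced from K562, an established human leukaemia line of erythroid and megakaryocytic character, in 2 RUNX1 genotypes: wild-type RUNX1 (WT, 3 libraries) and RUNX1 R320* (3 libraries). RUNX1 is a transcription factor of blood cell development, and R320* denotes a premature stop codon. Both genotypes grew in the same medium with no other treatment named, and the question set by the design was which transcripts differ between them. All libraries come from 1 line, and how R320* was made, its zygosity, and whether the replicates are separate clones or cultures were not found in the labels. P-values therefore measure the spread between these 6 libraries alone, which may be technical.

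A nucleosome wraps DNA around a core of the histones H2A, H2B, H3 and H4, and a linker histone H1 binds where the DNA enters and leaves. Canonical histone genes lie in clusters, are transcribed mainly in S phase, and give mRNAs that end in a stem-loop bound by SLBP in place of a poly(A) tail. Variant histone genes stand alone in the genome, give polyadenylated mRNAs through the cell cycle, and supply replacement proteins such as H3.3, H2A.Z and macroH2A. Some canonical genes can also give a longer, polyadenylated mRNA that reads past the stem-loop, and the labels do not say whether the libraries were selected for poly(A).

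The stem-loops of 3 genes are shown because they mark the place where a canonical histone mRNA ends. Each was found by a search of the GENCODE 29 transcripts, and capitals mark the bases of the loop.
H3C10: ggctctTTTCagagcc
H4C8: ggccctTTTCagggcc
H2AX: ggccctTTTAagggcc
H2AX, the DNA damage variant of H2A, was the member of the variant group with such a stem-loop in its transcript, and that transcript ran on for 1044 bases beyond it. The annotated transcripts ran on for 769 bases in H3C10 and for up to 630 bases in H4C8.

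Sequences upstream of the start are shown for 9 genes on which the results below turn. They comprise the 2 most abundant canonical genes (H2BC12 and H1-2), a divergent H2A and H2B pair that shares its promoter (H2AC6 and H2BC4), an H3 and an H4 gene with large falls (H3C10 and H4C8), an H4 gene with no detected change (H4C9), and the H3.3 genes (H3-3B and H3-3A). Each is the 150 bases before the RefSeq start in GRCh38.p14. Capitals mark CCAAT on either strand (ATTGG when reversed), TATAAA, and the H2B octamer ATTTGCAT on either strand (ATGCAAAT when reversed).
H1-2 (chr6:26056471-26056620, minus strand): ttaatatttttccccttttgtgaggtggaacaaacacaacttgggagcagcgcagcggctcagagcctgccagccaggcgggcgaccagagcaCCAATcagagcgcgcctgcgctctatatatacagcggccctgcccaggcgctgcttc
H2BC12 (chr6:27146859-27147008, minus strand): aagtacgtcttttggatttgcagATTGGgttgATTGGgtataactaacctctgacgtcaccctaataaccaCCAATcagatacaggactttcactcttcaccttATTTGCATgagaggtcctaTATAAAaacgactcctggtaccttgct
H2AC6 (chr6:26124022-26124171, plus strand): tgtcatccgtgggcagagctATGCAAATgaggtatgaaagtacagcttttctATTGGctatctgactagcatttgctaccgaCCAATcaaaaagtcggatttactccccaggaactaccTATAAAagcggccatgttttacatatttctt
H2BC4 (chr6:26123927-26124076, minus strand): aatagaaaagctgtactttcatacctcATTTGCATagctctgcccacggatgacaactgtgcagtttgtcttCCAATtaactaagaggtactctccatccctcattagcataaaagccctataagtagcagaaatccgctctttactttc
H3C10 (chr6:27809901-27810050, plus strand): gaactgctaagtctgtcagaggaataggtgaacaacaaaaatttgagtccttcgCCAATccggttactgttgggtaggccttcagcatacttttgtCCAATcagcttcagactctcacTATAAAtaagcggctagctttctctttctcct
H4C8 (chr6:26285535-26285684, minus strand): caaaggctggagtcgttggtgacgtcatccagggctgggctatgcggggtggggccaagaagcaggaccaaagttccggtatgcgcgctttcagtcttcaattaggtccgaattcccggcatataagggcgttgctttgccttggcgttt
H4C9 (chr6:27139132-27139281, plus strand): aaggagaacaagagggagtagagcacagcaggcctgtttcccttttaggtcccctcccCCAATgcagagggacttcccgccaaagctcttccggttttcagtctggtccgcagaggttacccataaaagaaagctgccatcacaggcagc
H3-3B (chr17:75779780-75779929, minus strand): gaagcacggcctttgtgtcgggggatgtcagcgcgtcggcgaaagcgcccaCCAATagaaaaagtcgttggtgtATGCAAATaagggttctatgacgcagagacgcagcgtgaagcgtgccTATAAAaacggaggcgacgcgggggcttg
H3-3A (chr1:226061681-226061830, plus strand): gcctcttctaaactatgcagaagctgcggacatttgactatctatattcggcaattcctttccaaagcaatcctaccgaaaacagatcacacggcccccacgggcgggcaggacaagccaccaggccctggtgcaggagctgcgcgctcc
The starts of H2AC6 and H2BC4 lie 246 bases apart on opposite strands, so the same octamer is read in both sequences. H4C8 had none of the 3 motifs in this window, H4C9 had CCAAT alone, and H3-3A held CCAAT only farther upstream of the start shown, in reverse. RefSeq lists other starts for H3-3A, which are not shown.

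Over the 250 bases before the start, 65 canonical and 11 variant genes were matched among 27305 RefSeq promoters. CCAAT on either strand was held by 84.6% of the canonical promoters and by 33.0% of all promoters, and within the canonical group by every H1, H2A, H2B and H3 promoter but by 3 of 13 H4 promoters. TATAAA on the sense strand was held by 58.5% of canonical promoters against 7.2% of all. The octamer on either strand was held by 14 of 18 H2B and 11 of 16 H2A promoters, some of which face each other in pairs, against 1.7% of all promoters. H3-3B was the 1 variant promoter with the octamer. The RUNX core TGTGGT on either strand was found in 9.2% of canonical and 0.0% of variant promoters against 10.9% of all, and TGCGGT in 9.2% and 18.2% against 5.7%. These matches describe letters and were not tested as binding sites.

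Levels are compared between genes in RPKM, which is scaled by gene length. The most abundant members were variants. H3-3A, which encodes H3.3, stood at 1117 ± 25.8 (SD, n = 3) in WT and 1072 ± 33.7 in R320*, and H2AZ1, which encodes H2A.Z, at 822 ± 36.3 and 662 ± 26.7. Among canonical genes H2BC12 led with 374 ± 7.71 in WT and 251 ± 2.78 in R320*, followed by H1-2 with 329 ± 5.93 and 154 ± 8.99. Few canonical genes came near these levels: the next was H2AC6 at 74.8 ± 1.61 in WT. Of the 70 canonical genes, 14 were listed at 0 in every library, and 45 reached 0.5 RPKM in at least 3 libraries. In normalized counts 9 of 69 canonical genes were at 0 in every library and 38 reached 10 in at least 3 libraries. Only members that passed these filters were tested.

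**Figure D1:**
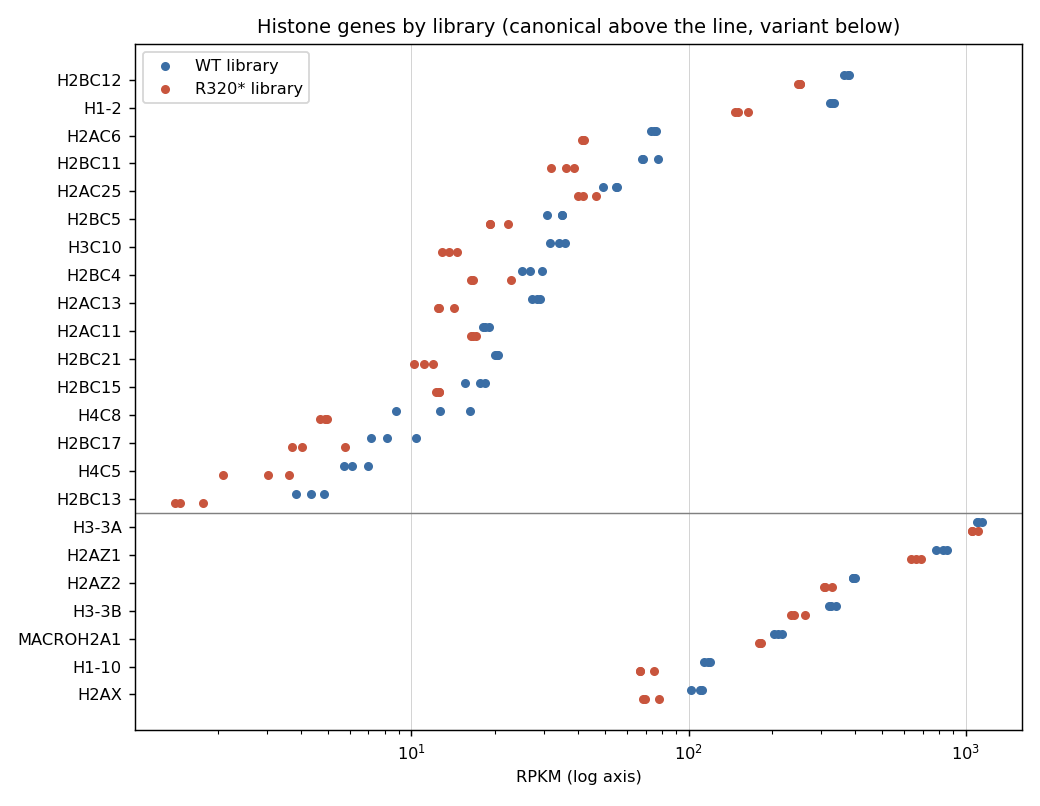
RPKM of histone genes in each library on a log axis, 1 dot per library, with WT in blue and R320* in red. Canonical genes are above the line and variant genes below; shown are genes described in the text with a mean above 1 RPKM. H3-3A overlaps between genotypes, while H1-2 falls from 323 to 335 RPKM in WT to 147 to 164 in R320*.

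Summed over genes, the canonical level was lower in R320* than in WT by a larger share than the variant level. Canonical RPKM summed to 1299, 1294 and 1333 in the WT libraries and to 809.6, 768 and 772 in the R320* libraries, a change of -40.2%. Variant RPKM summed to 3073, 3053 and 3168 in WT and to 2730, 2577 and 2552 in R320*, a change of -15.4%. In both sums every R320* library lay below every WT library. H3-3A, which was not called, held 1117 of the 3098 variant RPKM in WT, and the variant sum was not computed without it. The size of the contrast therefore depends in part on H3-3A. The RPKM of all genes also summed lower in R320* (721735 to 764073) than in WT (764578 to 786389), and no rescaling was done. Canonical genes made up 29.7% ± 0.0789 (SD, n = 3) of the summed histone RPKM in WT and 23.0% ± 0.181 in R320*. In normalized counts the changes were -39.9% for canonical and -18.6% for variant genes. No p is given for these sums, and fewer cells in S phase cannot be told apart from less histone mRNA per cell in bulk RNA.

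A pair of genes carried much of the canonical sum. H1-2 and H2BC12 together held 53.7% ± 0.938 (SD, n = 3) of the canonical RPKM in WT and 51.7% ± 0.784 in R320*. Without them the sum still moved by -37.6%. By family, the canonical sum changed by -53.0% for H1, -32.9% for H2A, -36.4% for H2B, -50.4% for H3 and -31.3% for H4. Most of these sums rest on few genes. In WT, H1-2 held 329 of 333 RPKM for H1, H2BC12 374 of 578 for H2B and H3C10 33.8 of 52.6 for H3. For H4, H4C11 and H4C14 held 23.0 and 18.1 of 73.6. Only 18.8% and 0.0% of their 50-base windows are unique among GENCODE 29 transcripts. H1-2 itself went from 25.2% ± 0.274 of the canonical RPKM in WT to 19.6% ± 0.604 in R320*, and H2BC12 from 28.6% ± 0.678 to 32.1% ± 1.27. Neither share overlapped between the genotypes, and they moved in opposite directions.

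**Figure D2:**
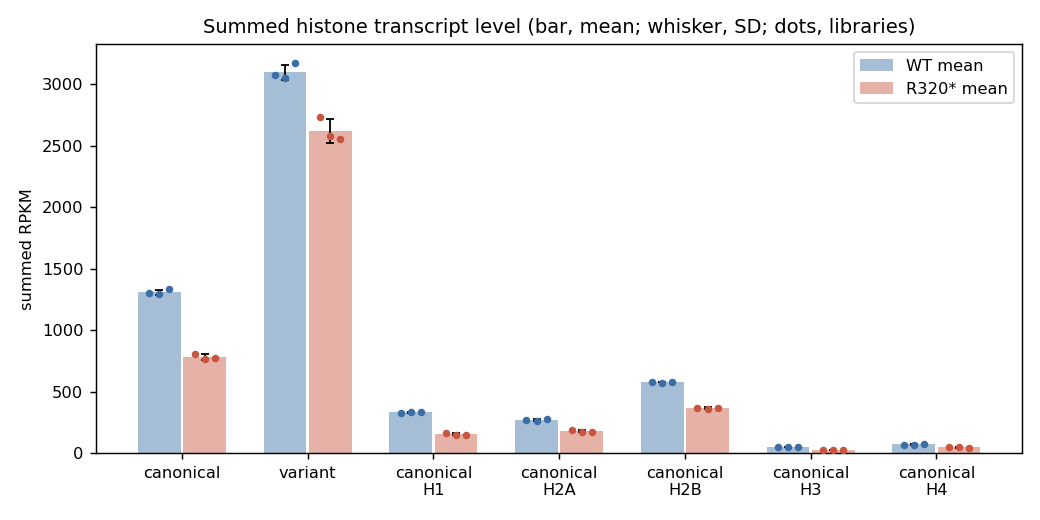
Summed RPKM of canonical and variant histone genes and of each canonical family, with bars from 0 for the mean, whiskers for the SD and 1 dot per library (n = 3 per genotype). The canonical sum is 1309 in WT and 783 in R320*, and the variant sum 3098 and 2620.

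Gene by gene, canonical histone genes fell or did not pass the test, and none was called higher. In normalized counts 20 of the 38 tested canonical genes were called lower in R320* (limma adjusted p below 0.05) and 0 higher, where 27.4% of all 14299 genes tested were called lower and 26.4% higher. At an unadjusted p below 0.05, limma also put 0 canonical and 0 variant genes higher in either table. The median log2 fold change of the 38 was -0.67 and that of all genes tested 0.01. In RPKM 22 of 45 were called lower and 0 higher, where 16.8% of 17769 genes were called lower and 15.1% higher, with medians of -0.55 and 0.01. H1-3 was the 1 tested canonical gene that passed the filter through the WT libraries alone, in both tables. Without it, 19 of 37 were called lower in normalized counts and 21 of 44 in RPKM, with medians of -0.65 and -0.55. Among the 16 canonical genes with a mean of at least 100 normalized counts over all 6 libraries, 13 were called lower, with a median of -0.69.

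Most tested variant genes also fell, with a median nearer to 0. Of 12 variant genes 7 were tested in each table, and 6 of the 7 were called lower and 0 higher in both. Their median log2 fold change was -0.39 in normalized counts and -0.32 in RPKM. The 6 called variants had non-overlapping libraries, as did 30.2% of all genes tested in normalized counts in that direction. By canonical family, 2 of 4 tested H1 genes (H1-2, and H1-3 with the limit given above) were called lower in normalized counts, as were 3 of 10 H2A, 10 of 13 H2B, 3 of 5 H3 and 2 of 6 H4 genes. The remainder were not called. Of all genes tested 27.4% were called lower in normalized counts, and the shares of H2A (30.0%) and H4 (33.3%) are near that. In RPKM 16.8% of all genes were called lower. There the calls were 4 of 13 H2A genes (30.8%), 3 of 9 H4 genes (33.3%) and 2 of 6 H3 genes (33.3%). They were also 11 of 14 H2B genes and 2 of 3 H1 genes, with the same limit for H1-3. The difference between the canonical and variant groups was not tested, because the members were chosen with results known.

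**Figure D3:**
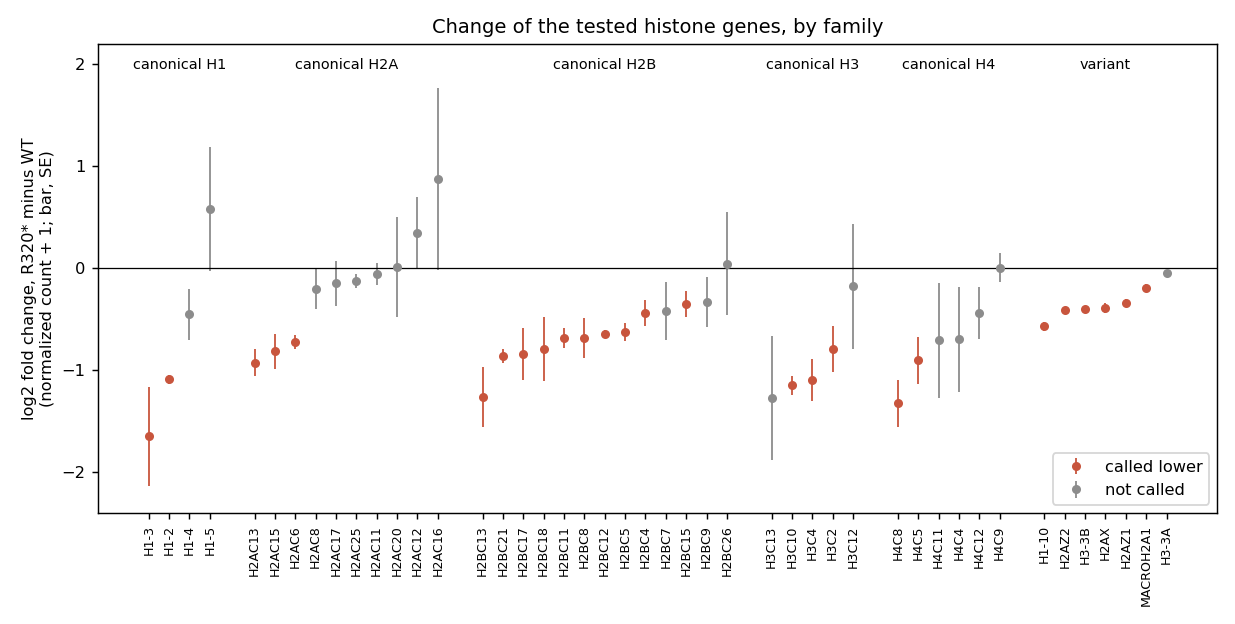
Log2 fold change (R320* against WT, from log2(normalized count + 1)) of the 45 tested histone genes, with whiskers for the SE, grouped by family. Red points were called lower and grey points were not called; the 7 variants lie between -0.57 and -0.05, and the canonical genes between -1.65 and 0.88.

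The abundant linker histone gene H1-2 fell 2.13-fold in normalized counts and 2.14-fold in RPKM. The variant linker gene H1-10 fell 1.48-fold and 1.68-fold. H1-2 (chromosome 6, 26055740 to 26056470, GRCh38.p14), a somatic linker histone, had 7455, 7864 and 7991 normalized counts in the WT libraries and 3925, 3450.1 and 3574 in the R320* libraries. Every R320* library lay below every WT library. The log2 change was -1.09 (SE 0.05; adjusted p = 1.2e-11 by limma), and in RPKM it was -1.10 (adjusted p = 1.94e-05 by limma). H1-3 was scarce, at 16.7, 27.9 and 21.2 normalized counts in WT and 4.90, 4.96 and 9.53 in R320*. It passed the filter only through WT, where it is high, so the filter favoured a lower call, and its calls support nothing here. Its call in RPKM was lost with the replicate block (adjusted p = 0.08 by limma) and without any 1 of 5 libraries: WT replicate 1 (0.0538), WT replicate 2 (0.0647), WT replicate 3 (0.0998), R320* replicate 2 (0.0689) or R320* replicate 3 (0.0681), each an adjusted p by limma, which ran from 0.0106 to 0.0998 over the alternatives. H1-4 and H1-5 were tested and not called. H1-10, the replication-independent linker variant, went down from 6955 ± 261 (SD, n = 3) to 4692 ± 236, with a log2 fold change of -0.57 (SE 0.04; adjusted p = 1.35e-08 by limma). Its log2 change in RPKM was -0.75 (adjusted p = 0.000157 by limma).

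H2B was the family with the most called genes. H2BC12 (chromosome 6, 27138293 to 27146858) had 12197, 12086 and 12140 normalized counts in WT and 8046, 7471 and 7782 in R320*, a log2 fold change of -0.65 (SE 0.04; adjusted p = 2.32e-10 by limma). Its RefSeq span holds H4C9, and 25.9% of its 50-base windows are unique among GENCODE 29 transcripts, so how its reads divide from those of H4C9 and other transcripts is uncertain. H2BC21, in the cluster on chromosome 1, had 1208, 1193 and 1197 counts in WT and 659.8, 615 and 702 in R320* (log2 change -0.87 ± 0.07 SE). Neither gene overlapped between genotypes. H2BC5 (-0.63) and H2BC11 (-0.69) moved by similar amounts, and H2BC13, at 68.0, 67.8 and 67.8 counts in WT and 35.3, 18.9 and 31.4 in R320*, by -1.27 (SE 0.30; adjusted p = 0.00171 by limma).

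The calls of H2BC4, H2BC15 and H2BC17 were lost when some single libraries were left out. H2BC4 went from 359 ± 32.8 (SD, n = 3) to 266 ± 43.5 normalized counts (log2 change -0.44; adjusted p = 0.00953 by limma). Its call was lost without WT replicate 1 (adjusted p = 0.0509 by limma) and without R320* replicate 2 (adjusted p = 0.0559 by limma). Over all its alternatives the p ran from 0.00189 to 0.0559. H2BC15, at 274 ± 14.1 and 215 ± 17.8 (log2 change -0.35; adjusted p = 0.0249 by limma), was no longer called without WT replicate 1 (adjusted p = 0.063 by limma), WT replicate 3 (0.0819), R320* replicate 1 (0.0683) or R320* replicate 3 (0.0663) and with quantile normalization (0.084). Its p ran from 0.0156 to 0.084. H2BC17 went down from 92.5 ± 21.5 to 51.2 ± 11.99 (log2 change -0.84; adjusted p = 0.00978 by limma) and was no longer called without WT replicate 3 (adjusted p = 0.0655 by limma; p from 0.00589 to 0.0655). In RPKM, H2BC17 lost its call without R320* replicate 2 (adjusted p = 0.0515 by limma).

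H2A genes were split between falls and no detected change in normalized counts. H2AC6 (chromosome 6, 26124172 to 26124690), the most abundant canonical H2A gene, had 1374, 1514 and 1372 normalized counts in WT and 873, 789.8 and 917 in R320* (log2 change -0.72 ± 0.07 SE; adjusted p = 2.01e-07 by limma). H2AC13 had 278, 259 and 284 in WT and 137, 149.8 and 143 in R320* (log2 change -0.93 ± 0.13 SE), with 37.7% of its 50-base windows unique, so its share of reads is uncertain. Both fell with no overlap between the genotypes. H2AC25, in the smaller cluster on chromosome 1, had 1063, 1001 and 1132 in WT and 955, 935 and 1037 in R320*, which overlap, and was not called (log2 change -0.13 ± 0.07 SE; adjusted p = 0.134 by limma). H2AC11, at 369, 319 and 385 in WT and 329, 356 and 346 in R320*, also overlapped (log2 change -0.05 ± 0.11 SE; adjusted p = 0.703 by limma).

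Within divergent H2A and H2B pairs, the ratio of the genes was compared between genotypes. The ratio of H2BC11 to H2AC11, whose starts are 248 bases apart, was 0.74, 0.79 and 0.59 on the log2 scale in the WT libraries and 0.02, 0.04 and 0.16 in the R320* libraries, a change of -0.63. The ratio of H2BC4 to H2AC6 went the other way, from -1.82, -2.22 and -1.92 in WT to -1.48, -1.81 and -1.81 in R320*. Each ratio separated the genotypes, with a two-sided exact permutation p of 0.1, the smallest that 3 libraries against 3 can give, and 0.143 after adjustment over the 10 pairs compared in normalized counts. In RPKM the second ratio overlapped between genotypes (two-sided exact permutation p = 0.3). For 6 divergent pairs the strands of both genes were found, and 4 of these had ratios without overlap in normalized counts and 2 in RPKM. H2BC11 to H2AC11 was the 1 pair of these 6 without overlap in both. H2AC12 lies next to the start of H2BC12, but no promoter was matched for it, so this pair was left out of the 6. The ratio of H2BC12 to H2AC12 also had no overlap in both, with changes of -0.99 in normalized counts and -1.65 in RPKM. H2AC12 was scarce, at means of 22.4 normalized counts in WT and 28.5 in R320*. The ratio of H2BC13 to H2AC13 overlapped in both tables (two-sided exact permutation p = 0.3 and 0.2). The ratio of H2BC8 to H2AC8 overlapped in normalized counts (two-sided exact permutation p = 0.2), and those of H2BC21 to H2AC20 and H2BC15 to H2AC15 did so in RPKM (p = 0.7 and 0.8 by the same exact test). The pairs were chosen after their values were seen.

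H3 and H4 genes were less abundant and included some of the larger falls. H3C10 (chromosome 6, 27810051 to 27810536) had 572, 561 and 593 normalized counts in WT and 249.04, 256 and 271 in R320* (log2 change -1.15 ± 0.10 SE; adjusted p = 3.75e-08 by limma). H4C8 (chromosome 6, 26285126 to 26285534) had 93.1, 139 and 141 in WT and 52.0, 45.6 and 46.7 in R320* (log2 change -1.33 ± 0.23 SE; adjusted p = 0.000116 by limma). H4C5 had 127, 104 and 97.1 in WT and 73.5, 57.6 and 44.8 in R320* (log2 change -0.90 ± 0.23 SE). All 3 genes had R320* libraries below every WT library. H3C4 had 161, 127 and 122 counts in WT and 75.5, 58.5 and 56.2 in R320* (log2 change -1.10 ± 0.21 SE), but it was listed at 0 in every RPKM library and its span overlaps H2AC7, so its value is uncertain. H4C9, whose span lies within H2BC12, had 227, 189 and 181 counts in WT and 202, 191 and 204.9 in R320*, which overlap (log2 change 0.01 ± 0.14 SE; adjusted p = 0.975 by limma).

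Of the genes H3-3A and H3-3B, which encode the same replacement histone H3.3, H3-3B was called lower and H3-3A was not. H3-3B (chromosome 17, 75776434 to 75779779) had 10158, 10152 and 10384 normalized counts in WT and 7878, 7696 and 7684 in R320* (log2 change -0.40 ± 0.03 SE; adjusted p = 3.92e-08 by limma). H3-3A (chromosome 1, 226061831 to 226072019) had 14875, 14407 and 15027 in WT and 13808, 14597 and 14453 in R320*, which overlap (log2 change -0.05 ± 0.03 SE; adjusted p = 0.256 by limma). The log2 ratio of H3-3B to H3-3A was -0.55, -0.51 and -0.53 in WT and -0.81, -0.92 and -0.91 in R320*, with no overlap (two-sided exact permutation p = 0.1, the smallest possible, and 0.143 over the 10 pairs). In RPKM the same ratio changed by -0.36.

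Both genes for H2A.Z fell. H2AZ1 went down from 14718 ± 665 (SD, n = 3) to 11634 ± 509.6 normalized counts (log2 change -0.34 ± 0.04 SE; adjusted p = 2.8e-06 by limma), and H2AZ2 from 9893 ± 83.1 to 7444 ± 135 (log2 change -0.41 ± 0.03 SE; adjusted p = 3.18e-08 by limma). The ratio of H2AZ2 to H2AZ1 overlapped between genotypes (two-sided exact permutation p = 0.3). H2AX went down from 6364 ± 415 to 4857 ± 254 (log2 change -0.39 ± 0.05 SE; adjusted p = 5.49e-06 by limma), and its span overlaps DPAGT1. The log2 change of H2AX in RPKM was larger, at -0.58, while those of H2AZ1 and H2AZ2 were smaller, at -0.31 and -0.32. MACROH2A1, which carries a large macro domain, had the smallest change of the 6 called variants, from 8617 ± 70.5 to 7542 ± 136 (log2 change -0.19 ± 0.03 SE; adjusted p = 0.000163 by limma). H1-7, H1-8 and H2AJ were at 0 in every library of both tables, and MACROH2A2 did not exceed 3.92 normalized counts.

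The tables were compared because near-identical copies can divide reads differently. Of 42 members tested in both, 23 were called lower in both (17 canonical and 6 variant), 2 were called in normalized counts alone (H2AC15 and H2BC18), and 4 in RPKM alone (H2AC17, H2AC25, H2BC7 and H2BC9). None was called in opposite directions. The H2AC25 call in RPKM (log2 change -0.31; adjusted p = 0.0191 by limma) was lost without WT replicate 1 (adjusted p = 0.064 by limma), WT replicate 3 (0.0636), R320* replicate 2 (0.0606) or R320* replicate 3 (0.0611) and without the intensity trend (0.0531), with a lowest value of 0.011 over its alternatives. The H2BC4 call in RPKM was lost without the same 4 libraries (adjusted p by limma of 0.0774, 0.0644, 0.0763 and 0.0759, in that order) and without the intensity trend (0.0553), with a lowest value of 0.00295.

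**Figure D4:**
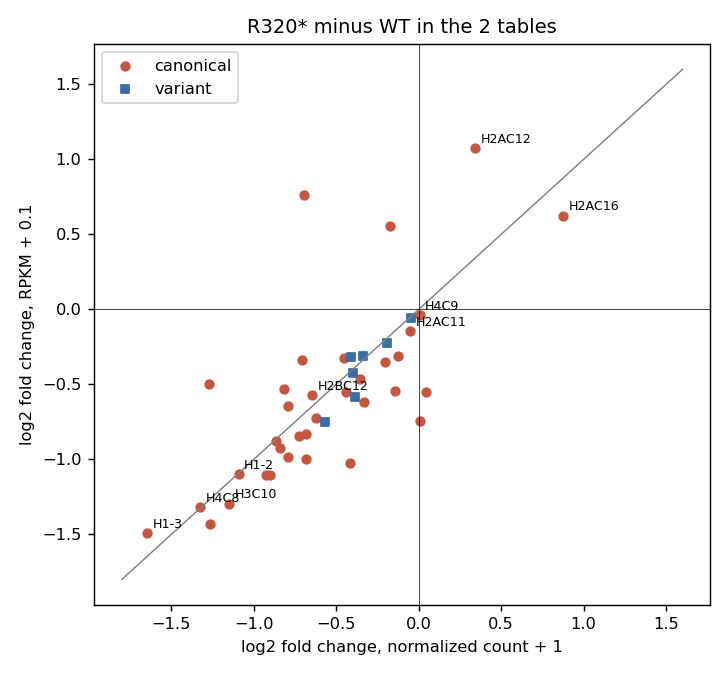
Log2 fold change (R320* minus WT) of the 42 members tested in both tables, normalized counts on the x axis and RPKM on the y axis, with the line of equality. Most points lie near the line in the lower left. H2AC12 and H2AC16 are positive in both tables and were not called in either. The H2AC16 means were nevertheless lower in R320* (14.3 to 13.6 normalized counts, 1.52 to 1.19 RPKM), with WT replicate 3 at 0 in both.

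Near-identical copies had unlike values in the normalized count and RPKM tables. H2AC18 and H2AC19 are near-identical, with 0.0% and 2.9% of their 50-base windows unique among GENCODE 29 transcripts. Together they had 9.41, 19.9 and 17.2 normalized counts in WT, but 64.3, 57.4 and 70.3 RPKM, and 49.0, 39.3 and 36.4 RPKM in R320*. Singly, H2AC18 was listed at 31.3, 0 and 28.4 RPKM in the WT libraries, so the division between the copies is uncertain while the sum is steadier. H4C14, with 0.0% unique windows, had at most 2.09 normalized counts in any library and 18.6, 16.4 and 19.4 RPKM in WT against 9.33, 10.5 and 9.35 in R320* (log2 change -0.89 ± 0.09 SE; adjusted p = 0.00059 by limma). H4C15, with 4.9% unique windows, had means of 1.69 RPKM in WT and 2.40 in R320* and was not called (log2 change 0.32). The division between H4C14 and H4C15 is uncertain, and their RPKM sum changed by -38.8%.

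Canonical genes were grouped by what GENCODE 29, which may not be the annotation the authors used, gives for their 3' end. In 22 genes a transcript ran more than 100 bases beyond a stem-loop, in 9 every such transcript ended within 100 bases of it, and in 39 no stem-loop was found. Of those 39, 33 have an entry about as long as the coding sequence, so the absence says little about the mRNA. Mean RPKM had a median of 5.31 in the 22 and 18.8 in the 9, of which 2 are the near-identical copies H2AC18 and H2AC19, and 0.394 in the 39, which include H1-2 and H2BC12. In normalized counts 9 of 15 tested genes of the first group were called lower, 3 of 5 of the second and 8 of 18 of the third, where 27.4% of all genes were. These groups describe the annotation, not which mRNA end was sequenced.

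Position was examined because most canonical genes share 1 stretch of chromosome 6. In that cluster, 25726063 to 27893891, 18 of 32 tested canonical genes were called lower, with a median log2 change of -0.67. Among 35 other tested genes within the cluster or 500000 bases of it, 11 (31.4%) were called lower and 6 (17.1%) higher, against 27.4% and 26.4% of all genes, with a median of -0.20 against 0.01. The share called lower is near that of all genes. In the larger chromosome 1 cluster 2 of 4 tested histone genes were called lower, and in the smaller one 0 of 2. The part of position in the histone changes was not tested.

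Of 24 genes for transcription and processing of histone mRNA, 10 (41.7%) rose and 6 (25.0%) fell in normalized counts, where 26.4% of all genes rose and 27.4% fell, and the median log2 change was 0.09. In RPKM 6 (25.0%) rose and 3 (12.5%) fell, where the shares of all genes were 15.1% and 16.8%. SLBP, the stem-loop binding protein, rose from 3346 ± 165 (SD, n = 3) in WT, by 0.20 on the log2 scale (SE 0.04; adjusted p = 0.00101 by limma), and NPAT, the coactivator of histone gene transcription, by 0.32. CDK2, a kinase that phosphorylates NPAT, fell by 0.64, and LSM11 and LSM10, which belong to the U7 snRNP that cuts histone pre-mRNA, fell by 0.52 and 0.34. CSTF2T, DHX9 and CPSF3, RNA processing factors, rose by 0.32, 0.19 and 0.23, and TUT7, a terminal uridylyltransferase, fell by 0.26 in normalized counts and was not called in RPKM (log2 change -0.13).

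Of 34 histone chaperones and deposition factors, 14 (41.2%) rose and 8 (23.5%) fell in normalized counts (median 0.09), and 11 (32.4%) rose and 6 (17.6%) fell in RPKM, against the same shares of all genes. The shares that fell are near those of all genes. NAP1L1, a chaperone of H2A and H2B, fell by 0.80 (SE 0.04; adjusted p = 1.18e-11 by limma), and NPM1 and EP400 fell by 0.24 and 0.37. ANP32E, which removes H2A.Z from nucleosomes, fell by 0.28 in normalized counts and by 0.18 in RPKM. TONSL, a reader of newly made H4, rose by 0.82 on the log2 scale (SE 0.04; adjusted p = 3.86e-11 by limma), SUPT16H of the FACT complex by 0.41, CABIN1 by 0.46 and MCM2, a helicase subunit that binds H3 and H4, by 0.48. CENPA, the centromeric H3 variant outside the group, was not called (log2 change -0.11).

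Of 30 S phase and replication genes, 17 (56.7%) rose and 1 (3.33%) fell in normalized counts, where 26.4% of all genes rose and 27.4% fell, and the median log2 change was 0.19. In RPKM 18 (60.0%) rose and 1 fell, where 15.1% of all genes rose and 16.8% fell. The remaining genes were not called. TYMS rose by 0.66 on the log2 scale, MCM6 by 0.44 and POLD1 by 0.46, while RRM2, a ribonucleotide reductase subunit, was the gene that fell, by 0.80 in normalized counts and by 0.31 in RPKM. PCNA was not called (log2 change -0.01). A difference in the share of cells in S phase was not tested, since no cell cycle measurement was analysed here.

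RNAs that, like canonical histone mRNA, carry no poly(A) tail varied between libraries. Of 27 such RNAs 7 were tested in normalized counts, with 3 (42.9%) called higher (SNORA73B, SNORD3A and RN7SK) and 0 lower. Of all genes 26.4% were called higher and 27.4% lower there. In RPKM 8 were tested, with 0 called, where 15.1% of all genes were called higher and 16.8% lower. The lowest adjusted p by limma in RPKM was 0.0736, for RN7SK, and 1 of the 8 had an unadjusted p below 0.05. RN7SL2, a signal recognition particle RNA, had 29455 normalized counts in WT replicate 1 against 8369 and 10269 in the other WT libraries and 10262 to 13990.1 in R320*. RN7SL1, a near copy of it, was high in both replicate 1 libraries, at 22629 in WT against 3860.4 and 4367 in the others, and at 12507 in R320* against 5121 and 5096. Without WT replicate 1, 17 canonical genes were called lower in normalized counts and 18 in RPKM, and without R320* replicate 1, 19 and 21, with 6 variants called lower in each case. The part of these RNAs in the histone result was not tested.

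Across the series, 29058471 to 31306435 reads per library were counted when each value is divided by its column's smallest value. RPKM columns summed to 764578 to 786389 in WT and to 721735 to 764073 in R320*, with every R320* library below every WT library. RUNX1 had 2933 ± 31.6 (SD, n = 3) normalized counts in WT and 5165 ± 124 in R320*, a total over alleles that does not test the labels. K562 markers were present, with 17 of 17 erythroid and BCR-ABL1 line markers tested in each table. In normalized counts 10 (58.8%) were called higher and 3 (17.6%) lower, where 26.4% and 27.4% of all genes were. In RPKM 7 (41.2%) were called higher and 3 (17.6%) lower, where 15.1% and 16.8% of all genes were. T and NK markers summed to 944 to 1018 normalized counts in WT and 673 to 759 in R320*, mostly CD3D and CD3G, with CD4 at most 4.76. B cell markers summed to 260 to 376 and 262 to 308, with MS4A1 at most 1.91. Fibroblast markers, mostly COL1A2, summed to 3434 to 3520.4 and 2711 to 2930, and COL3A1 was at most 1.98. Epithelial markers summed to 16052 to 16239 and 17844 to 18372, from keratins and EPCAM, with CDH1 at most 6.67. The part of other cells in the histone result was not tested.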

How the data were processed

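Per the labels' protocols, RNA was taken from K562 cells with TRIzol and sequenced from NEBNext Ultra II libraries. Per the submitters' processing notes, the tools were HISAT2, featureCounts, Salmon and DESeq2 on hg38. Versions, the tool that made each table, poly(A) selection and use of strand: not given in the sources used here. The authors' deposited signal values are normalized counts for 28395 genes, and the authors' deposited RPKM values cover 60131 genes. An exact 0 in RPKM can be a failed estimate.

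Here, limma 3.58.1 (R 4.3.3; empirical Bayes, intensity trend) was fitted to log2(normalized count + 1), keeping genes that reached 10 in 3 or more of the 6 libraries, and to log2(RPKM + 0.1), keeping genes that reached 0.5 in 3 or more. These constants can understate changes of low genes. Where a library is at 0, as for H2AC16, the sign of the log2 change can differ from that of the means. P-values were adjusted by Benjamini-Hochberg over all genes tested and called below 0.05. The fit was checked on simulated data. Sums, ratios and sequences were computed in Python 3.11.15 (pandas 2.3.3, NumPy 2.4.6, SciPy 1.17.1), and figures drawn with matplotlib 3.10.9. The stem-loop search and the 50-base windows used GENCODE 29 transcripts, and positions and promoters RefSeq GRCh38.p14.

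The members and gene lists were chosen with earlier results of these data known. Named are all variants, the 12 most abundant canonical genes, the 10 called canonical genes with the largest changes and no overlap between genotypes, and up to 4 genes per list and direction. H4C9, H4C14, H4C15, H2AC18, H2AC19, the marker genes, NPAT, PCNA, CENPA, RN7SL1, RN7SL2 and the gene pairs were chosen after their values were seen. Alternatives changed the pseudocount, filter, scaling, intensity trend or replicate block, or left out each library.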

Additional observations from a re-analysis of the deposited data

How the results depend on the processing

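In all 14 alternatives for normalized counts and 13 for RPKM, 0 canonical and 0 variant histone genes were called higher and 6 variants were called lower. Leaving out each library in turn gave 17 to 19 canonical genes called lower in normalized counts and 17 to 21 in RPKM, with canonical medians of -0.65 to -0.60 and -0.70 to -0.57 and variant medians of -0.41 to -0.35 and -0.35 to -0.30. The other alternatives gave 18 to 22 and 20 to 22. The canonical median was -0.53 in normalized counts with quantile normalization, and in RPKM -0.48 with a pseudocount of 1 and -0.62 with one of 0.01. The variant median was -0.34 in normalized counts without a filter and -0.23 in RPKM with quantile normalization. With the replicate block, 20 canonical genes in normalized counts and 21 in RPKM were called lower. Deviations of same-numbered libraries from the group means correlated at 0.03, -0.003 and -0.003. RN7SL1 was nevertheless high in both replicate 1 libraries, and whether same-numbered libraries shared a batch was not tested. Of 49 single-gene results, 42 kept their side of the threshold in every alternative, and the other 7 are given beside their values; the cause was not tested. The sign changed in 2 of the 42, neither called: H2AC11 in normalized counts (log2 change from -0.13 to 0.04) and H3-3A in RPKM (from -0.08 to 0.03). The planned count tests were not run. Members below the filters on low values were not tested, so no change is given for them.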
